A study of Mus musculus with 6 samples.

Results

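The AP-1 factor genes examined here were Fos, Fosb, Fosl1, Fosl2, Jun, Junb, Jund, Batf, Batf3 and Atf3, 10 genes of 49939 with a place in the annotation. Their accessible regions were taken from ATAC-seq peaks, which mark DNA that the Tn5 transposase can enter. Peaks of all libraries that shared 1 bp or more were merged into regions, and a region was assigned to a gene when it overlapped the RefSeq span of the gene extended by 50 kb on either side. This gave 154 of 89410 regions, 16 at Jun and 138 at the other 9 genes. The windows of Batf3 and Atf3 on chromosome 1 overlap, and regions in the overlap were counted once in the sums.

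Libraries were made from cultured mouse osteoblasts. The OB Fam20c f/f cells are a purchased immortalized osteoblast line with floxed Fam20c alleles, and the OB Fam20c KO cells were derived from this line by infection with a lentivirus carrying Cre recombinase. FAM20C is a kinase that phosphorylates secreted proteins. Both groups grew in the same α-MEM medium with fetal bovine serum. The methods describe a virus for the KO cells only, so deletion, virus and the passages since the lines parted cannot be told apart. There were 3 libraries per group from 50000 nuclei each. Nothing states whether the replicates were separate cultures, so their spread may be technical.

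AP-1 is a dimer of basic leucine zipper (bZIP) proteins that binds short DNA elements and turns growth factor, stress and matrix signals into transcription. JUN proteins can pair with each other or with FOS proteins, whereas FOS proteins need a JUN partner. BATF, BATF3 and ATF3 are shorter relatives that also pair with JUN proteins and can replace FOS in the dimer. Several of these genes respond within minutes to serum, and Fos, Fosl1, Fosl2, Junb and Jun have known roles in osteoblasts and bone formation.

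The deposited lists held 62781 to 74797 peaks in the f/f libraries. KO replicates 1 and 2 had 64141 and 64582 peaks, and the list of KO replicate 3 stood apart with 32958. A missing peak means that a site did not pass the threshold of the authors in that library, not that the chromatin was closed. Nor can fewer cells with an open site and weaker opening in each cell be told apart. Of the 7 osteoblast markers, Runx2, Sp7, Col1a1, Alpl and Spp1 had a region with a peak in all 6 libraries within 3 kb, while Bglap and Ibsp had no peak. All 3 endothelial and all 3 cartilage markers and 1 of 3 fat markers also had such a region, against 0 of 5 haematopoietic and 0 of 3 muscle markers. Marker peaks were 33, 36 and 42 in f/f and 32, 32 and 18 in KO for the osteoblast list. They were 7, 6 and 7 against 6, 4 and 0 for the haematopoietic list, and 14, 12 and 14 against 7, 8 and 4 for the endothelial list. In the latter, Tek alone had 7, 7 and 6 against 1, 1 and 1, and the groups overlapped at Pecam1 and Cdh5. In the cartilage, fat and muscle lists the groups overlapped, and KO replicate 3 had the fewest peaks. The part of these marker differences in the results below was not tested. Fam20c itself had 2, 1 and 2 regions with a peak in f/f and 2, 1 and 1 in KO, which does not check the deletion.

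The gene start is the part of each locus where sequence and peaks can be set side by side. RefSeq promoter entries (GRCm38.p6) were matched for 9 of the 10 members, all but Fosl1. The 250 bases before the start are given here for Jun and Fosl2, whose starts had the peaks of highest standing in f/f, for Fos, which held the most AP-1-related motif matches, and for Atf3, whose only match lies on the opposite strand. Capitals mark TGACG on either strand and TGACATCA. The first is the first part of the cAMP response element bound by CREB, ATF and JUN-ATF dimers, and the second is the AP-1-like element known from the Jun promoter. The 4 stretches lie at chr4:95052223-95052472 (minus strand, Jun), chr5:32136222-32136471 (plus strand, Fosl2), chr12:85473640-85473889 (plus strand, Fos) and chr1:191183334-191183583 (minus strand, Atf3).
Jun: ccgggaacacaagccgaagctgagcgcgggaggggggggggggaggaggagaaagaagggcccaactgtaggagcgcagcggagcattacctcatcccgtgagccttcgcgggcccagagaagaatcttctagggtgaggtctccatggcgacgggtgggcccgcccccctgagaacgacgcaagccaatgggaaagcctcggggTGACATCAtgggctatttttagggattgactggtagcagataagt
Fosl2: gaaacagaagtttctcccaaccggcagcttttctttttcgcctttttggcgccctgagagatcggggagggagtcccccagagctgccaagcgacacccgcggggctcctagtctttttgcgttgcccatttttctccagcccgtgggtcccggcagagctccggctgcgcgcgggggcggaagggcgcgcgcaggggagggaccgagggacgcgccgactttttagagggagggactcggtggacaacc
Fos: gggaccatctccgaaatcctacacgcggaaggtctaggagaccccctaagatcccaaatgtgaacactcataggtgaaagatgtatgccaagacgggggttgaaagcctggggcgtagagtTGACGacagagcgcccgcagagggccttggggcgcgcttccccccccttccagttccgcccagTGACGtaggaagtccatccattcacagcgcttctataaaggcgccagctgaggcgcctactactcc
Atf3: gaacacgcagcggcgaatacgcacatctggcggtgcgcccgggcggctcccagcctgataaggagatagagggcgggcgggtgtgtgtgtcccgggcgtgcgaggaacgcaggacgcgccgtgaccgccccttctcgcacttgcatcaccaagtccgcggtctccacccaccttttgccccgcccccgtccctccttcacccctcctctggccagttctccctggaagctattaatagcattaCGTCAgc

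TGACATCA stood 45 to 38 bases before the start of Jun. No other member held it, and 2.93% of 32851 promoters of the same length did. TGACG was present in 5 of the 9 members (Fos, Fosb, Junb, Batf and Atf3) and in 17.8% of all promoters. Fos held it at 129 to 125 and at 66 to 62 bases before the start, the latter just upstream of its TATAAA motif at 33 to 28 bases. The consensus AP-1 element TGANTCA and the full element TGACGTCA, which contains TGACG, were in 0 of the 9 members against 6.75% and 1.55% of all promoters. CCAAT was found in Jun and Junb and in 33.8% of all promoters, TATAAA in Fos and in 12.4%, and the CArG box of serum response factor in none of the 9 and in 1.47%. All motifs were searched on both strands and were chosen after the sequences had been seen. The 9 stretches were 46.4 to 76.0% G and C, with Jund and Batf at 47.6 and 46.4% and the other 7 at 58.4% or more, against a median of 52.4% over all promoters.

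Peaks over the start were then read from the same windows with 50 bases after the start added. Fos, Fosb, Fosl2, Jun, Junb, Batf3 and Atf3 had a region with a peak in all 6 libraries over the start, as did 51.0% of 21262 protein-coding promoters. Jund had its nearest region 510 bases from the start, within the gene, and Batf had none closer than 18.4 kb. Both nearest regions had a peak in all 6 libraries. Jund and Batf are thus the members without a peak over the annotated start and also those with the least G and C before it.

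The peak at the start of Jun, which encodes one of the JUN proteins that FOS and BATF proteins pair with, was lower in the KO lists than in the f/f lists. It was the region chr4:95050353-95053727, which covers the start and the 5′ part of the intronless gene. The −log10 q was 273, 258 and 334 in f/f replicates 1 to 3 and 146, 199.8 and 46.5 in KO replicates 1 to 3. Because −log10 q grows with depth, each peak was also given its standing, the percentile by −log10 q within its own list, with 100 the highest. The start of Jun stood at 99.3, 98.4 and 97.3 in f/f and at 84.1, 85.3 and 82.5 in KO, so that the groups did not overlap, also without KO replicate 3. Of 8642 regions in all 6 libraries at a protein-coding promoter, 21.2% had lower standings in each KO than in each f/f library. The peak spanned 3137, 3121 and 3217 bases in f/f and 2175, 2362 and 2468 bases in KO. The summit was 64 bases upstream of the start in all 3 f/f libraries and in KO replicate 1, and 117 and 72 bases upstream in KO replicates 2 and 3.

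The fold, which is the summit pileup divided by the local background, went the other way at this peak. It was 5.65, 4.46 and 4.35 in f/f and 6.23, 6.27 and 6.19 in KO, above f/f in each library. The same held at the starts of Fos (4.65, 4.60 and 4.64 against 5.80, 5.65 and 5.32), Fosb, Fosl2 and Junb, which makes 5 of 7 starts, against 7.75% of the promoter regions of the series. The difference was small at Fosl2, where the highest f/f fold was 7.49 and the lowest KO fold 7.51. At Atf3 and Batf3 the groups overlapped in fold. Jun was thus 1 of 5 members with a higher fold in KO, but the only 1 of the 7 whose standing by −log10 q was below f/f in every KO library.

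The other starts kept their place or overlapped between the groups. Fosl2, which encodes FRA2, stood at 96.4, 95.7 and 95.9 in f/f and 95.6, 97.0 and 96.3 in KO, with a −log10 q of 188, 199.7 and 296 against 284, 415 and 85.5. Atf3, a stress-induced repressor or activator depending on its partner, stood at 94.0, 91.8 and 92.4 against 93.2, 94.8 and 90.1. These were the only members beside Jun above 90 in an f/f library. Fos, the classical immediate early partner of JUN, stood at 74.0, 79.8 and 80.3 against 80.4, 78.1 and 65.7, and Fosb at 64.9, 66.0 and 74.3 against 72.2, 72.7 and 61.8. Junb was the lowest, at 59.7, 65.6 and 54.1 against 67.8, 67.4 and 58.3. Batf3, a factor of dendritic and T cells, spread most, at 69.9, 77.8 and 71.2 against 83.6, 81.4 and 50.4. At every start but that of Fosl2 the lowest KO value was that of replicate 3.

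**Figure D1:**
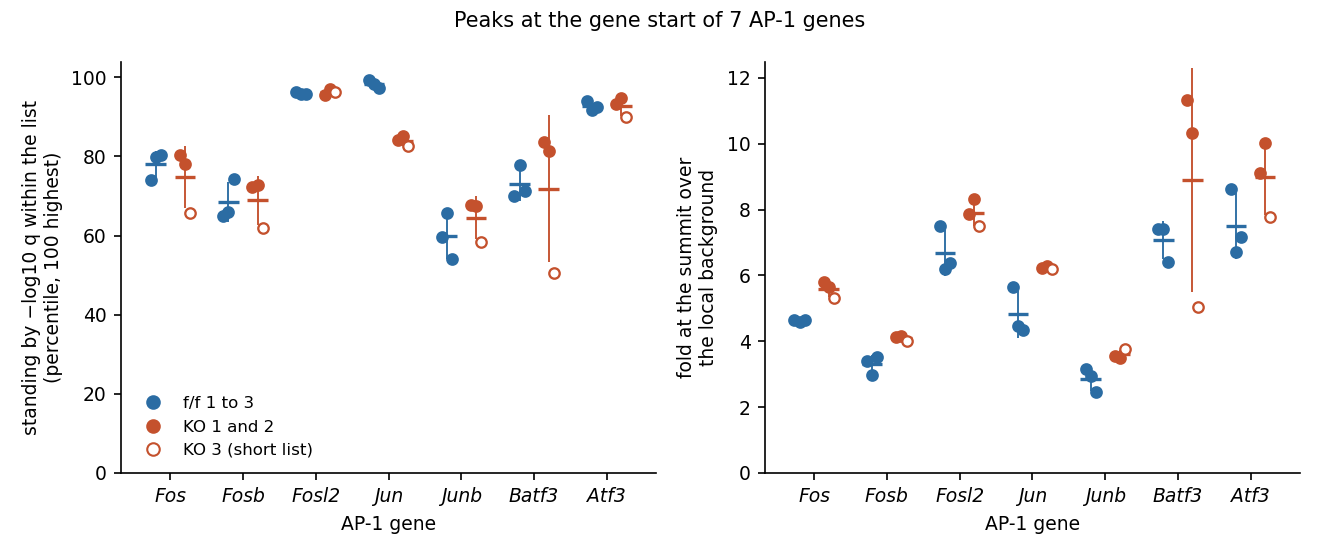
Peaks over the start of the 7 AP-1 genes that have one, by library. The left axis gives the standing by −log10 q within each list (percentile), the right axis the fold of the summit over its local background. Points are libraries, horizontal lines group means, vertical lines ± 1 SD (n = 3 per group). At Jun the 3 KO standings lie at 82.5 to 85.3, below the f/f standings of 97.3 to 99.3, while the KO folds lie above the f/f folds.

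Of the 154 regions at the 10 genes, 71 had a peak in all 6 libraries, 27 in 1 library only, and 22 in all libraries but KO replicate 3. The corresponding shares over the series were 33.4, 19.8 and 19.2%. Regions found in every f/f library and in no KO library, called f/f-only, numbered 6, and the reverse, KO-only, 0. Over all regions 3.75% were f/f-only and 0.179% KO-only. Of the 6, 3 lay at Jun and 1 each at Fosl2, Batf and Batf3. Those 4 genes are 4 of 10 windows with an f/f-only region, against 25.4% of 18956 protein-coding windows of the same extension, and 3 or more such regions, as at Jun, were found in 1.26% of windows. Most AP-1 windows held more regions than the median of 9 over these windows, with 14 to 22 at 8 of the 10 genes, 12 at Batf3 and 6 at Batf, and a window with more regions has more chances of an f/f-only one. Without KO replicate 3 the f/f-only count was again 6, and 6 regions were then KO-only. The f/f-only count was 10 without KO replicate 2, 3 with the same number of peaks taken from each list, and 0 within 10 kb of the genes. Regions in all 6 libraries were wider, with a median of 1192 bases against 407 bases for the rest.

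The number of regions with a peak at the 10 genes was 115, 111 and 126 in f/f and 115, 122 and 72 in KO, a difference of means of −14.3 (117 ± 7.77 against 103 ± 27.1, SD, n = 3, exact permutation test, two-sided, p = 0.7). The difference came with the short list of KO replicate 3. Without it the KO mean was above f/f by 1.17 regions. Per 10000 peaks of the list the AP-1 genes held 18.9, 17.7 and 17.1 peaks in f/f and 18.7, 19.5 and 22.1 in KO, with overlap between the groups (17.9 ± 0.911 against 20.1 ± 1.80, SD, n = 3, exact permutation test, p = 0.2). For the 9 genes without Jun the number per 10000 was 17.0, 15.9 and 15.4 against 17.3, 18.1 and 21.2, higher in each KO library (exact permutation test, p = 0.1, the smallest that 3 libraries against 3 allow, n = 3). Leaving out Jun was not planned for this number. It moves the difference towards KO, because the segment of Jun was already known to lose peaks in KO. With the same number of peaks from each list the difference for the 10 genes turned to −2.02 per 10000. The difference in regions with a peak was then −7.33 at the 10 genes, of which −3.67 at Jun. The number per 10000 at the 9 genes was not computed in that setting.

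By gene, Jun alone had fewer regions in each KO than in each f/f library. Its 12, 11 and 13 regions in f/f stood against 8, 7 and 3 in KO (12 ± 1 against 6.0 ± 2.65, SD, n = 3, exact permutation test, p = 0.1). The same pattern was seen in 12.8% of protein-coding windows. The difference remained −4.5 without KO replicate 3. At the other 9 genes the groups overlapped, and the lowest number was that of KO replicate 3 each time. Fosl2 and Fosb had more regions in KO replicates 1 and 2 than in any f/f library, with 12 and 12 against 9, 10 and 10 at Fosl2 and with 19 and 18 against 16, 16 and 17 at Fosb. Batf had the fewest regions, 5, 4 and 5 against 4, 4 and 2, and Fosb the most in all, 22.

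**Figure D2:**
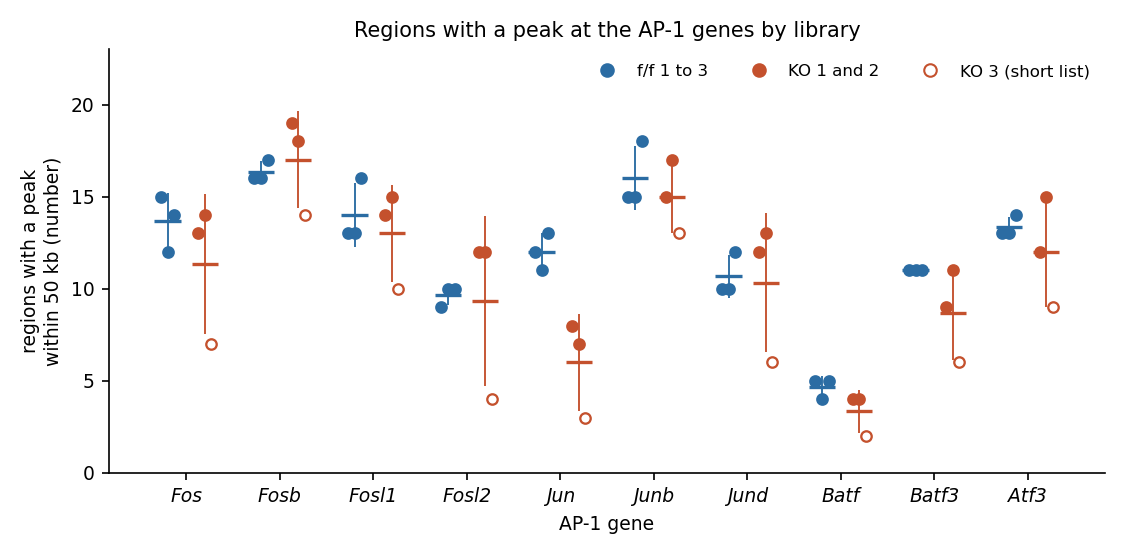
Number of regions with a peak within 50 kb of each AP-1 gene, by library. Points are libraries, horizontal lines group means and vertical lines ± 1 SD (n = 3 per group). Jun is the gene whose KO points (8, 7 and 3) all lie below its f/f points (12, 11 and 13), and the open points of KO replicate 3 are the lowest at each gene.

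Jun lies on chromosome 4 (chr4:95049036-95052222, minus strand) with no other protein-coding gene in its window, so its 16 regions have no other coding gene within 50 kb of Jun to belong to. Besides the start, 2 regions had a peak in all 6 libraries. The region chr4:95001059-95002005, 50.7 kb downstream of the start, had a −log10 q of 203, 188 and 331 in f/f and 74.6, 113 and 6.20 in KO. Its standing was 97.3, 94.8 and 97.2 in f/f, among the highest peaks of each list, and 71.6, 75.1 and 22.2 in KO. The region chr4:95098082-95099687, 46.7 kb upstream, stood at 87.1, 80.5 and 83.3 in f/f and 51.6, 51.5 and 47.6 in KO. At all 3 shared regions of Jun the 3 KO standings were below the 3 f/f standings. Over all regions with a peak in all 6 libraries the median change of standing was −5.72. Ranked only among such regions, the 3 of Jun were again lower in each KO library, as were 20.9% of 29849.

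The f/f-only regions of Jun all lay downstream of the gene. The largest, chr4:95007778-95008977 at 43.8 kb from the start, had a −log10 q of 64.7, 75.0 and 106 and a standing of 76.1, 77.7 and 78.2. The next, chr4:95032624-95033120 at 19.4 kb, stood at 38.3, 38.0 and 46.7. The weakest, chr4:95035431-95035885 at 16.6 kb, stood at 19.1, 13.6 and 43.4, with a −log10 q of 7.13, 5.13 and 23.7. The first is therefore a peak with a standing of 76.1 or more in each f/f list that has no counterpart in any KO list, whereas the other 2 were weaker peaks in f/f as well.

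At Jun 4 regions had a peak in every library but KO replicate 3. The region chr4:95025568-95026580, 26.1 kb downstream, stood at 47.7, 46.1 and 57.2 in f/f and at 33.0 and 38.4 in KO replicates 1 and 2. Upstream, chr4:95081569-95083106 at 30.1 kb stood at 74.5, 71.5 and 75.4 against 43.2 and 43.5, and chr4:95083975-95084607 at 32.1 kb at 51.0, 32.3 and 45.2 against 48.2 and 30.3. The last, chr4:95100282-95101160 at 48.5 kb upstream, stood at 48.8, 54.1 and 60.6 against 0.423 and 14.6. Of these, chr4:95083975-95084607 was the region where the f/f and KO standings overlapped. The remaining 6 regions had a peak in 1 or 2 libraries. Those at 36.5 and 2.09 kb downstream and at 17.2 kb upstream were peaks of f/f replicate 3 alone, those at 14.4 and 16.9 kb upstream of f/f replicates 2 and 1, and that at 52.8 kb downstream of f/f replicate 1 and KO replicate 1. No region at Jun was seen in KO only.

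**Figure D3:**
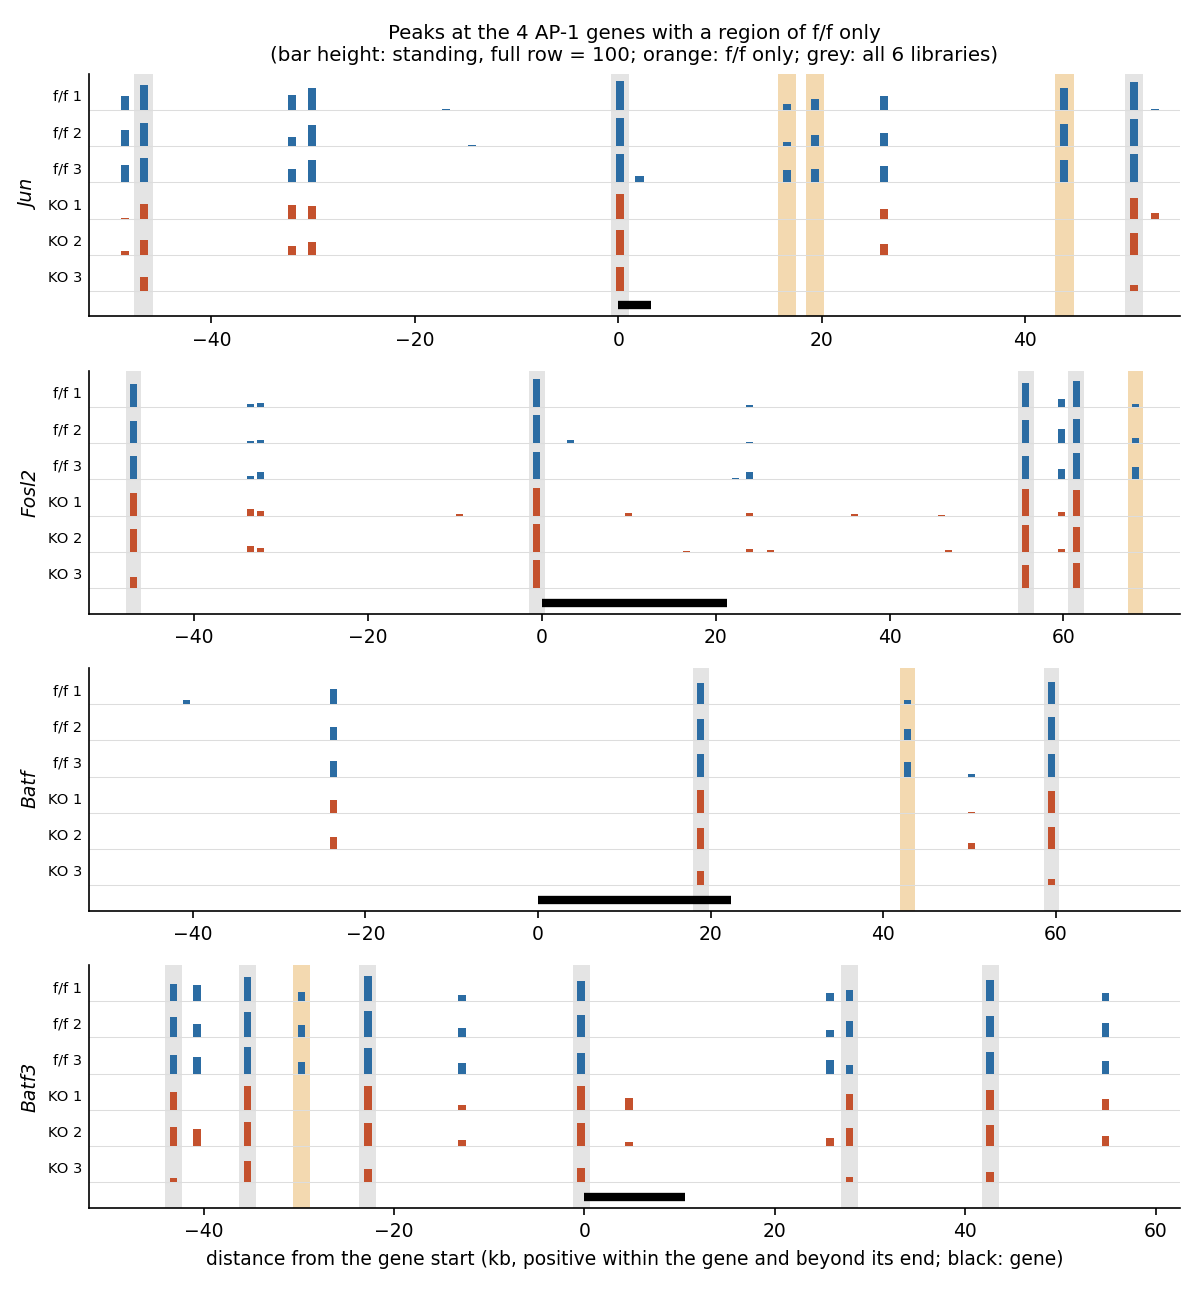
Peaks by library (rows) at Jun, Fosl2, Batf and Batf3, the 4 AP-1 genes with an f/f-only region, against the distance from the gene start in kb. Bar height is the standing of the peak within its list, a full row being 100, bar width is fixed and not to scale, and the black line is the gene. Orange marks f/f-only regions, 3 of them downstream of Jun, and grey marks regions with a peak in all 6 libraries.

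The standing within a list depends on its length, because a short list lacks weak peaks. Each shared region, one with a peak in every library, was therefore also ranked among the 29849 shared regions of the series, which gives its shared standing. Over these 29849 regions the median change was −5.72 in standing within the list and −0.240 in shared standing. At the 68 shared regions of the 9 genes other than Jun, the mean standing within the list was 75.7, 75.8 and 78.6 in f/f and 77.3, 77.6 and 57.8 in KO, a difference of −5.81 (76.7 ± 1.62 against 70.9 ± 11.3, SD, n = 3, exact permutation test, p = 0.8). Their shared standing was 52.2, 52.4 and 51.1 in f/f and 54.1, 54.3 and 54.3 in KO, a difference of 2.34 (exact permutation test, p = 0.1, n = 3). At Jun the mean standing within the list was 94.5, 91.2 and 92.6 against 69.1, 70.6 and 50.8, a difference of −29.3 (92.8 ± 1.66 against 63.5 ± 11.0, SD, n = 3, exact permutation test, p = 0.1). The shared standing of Jun was 88.3, 81.6 and 81.6 against 39.5, 41.9 and 46.7, a difference of −41.2 (exact permutation test, p = 0.1, n = 3).

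The difference between Jun and the other 9 genes was computed itself. Jun had been set apart because its chromosome 4 segment was known from earlier results of these data to lose peaks in KO. The p-values at Jun, here and above, are therefore descriptive and not independent support. Within each library, Jun stood 18.8, 15.4 and 14.1 points above the other genes in f/f, and its difference to them was −8.16, −6.97 and −7.06 points in KO. The change at Jun minus the change at the others was thus −23.5 points (exact permutation test of the library labels, two-sided, n = 3, p = 0.1, the smallest possible). It was −43.5 points in the shared standing and −23.1 points in the standing within the list without KO replicate 3. Ranked by fold, it was −4.71 points within the lists and −7.66 points among the shared regions, in the same direction but much smaller. Jun therefore went from above the other AP-1 genes in each f/f library to below them in each KO library by −log10 q. By fold it went from 8.51, 2.63 and 1.79 points above them to differences of −0.101, −0.018 and −1.10 points.

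**Figure D4:**
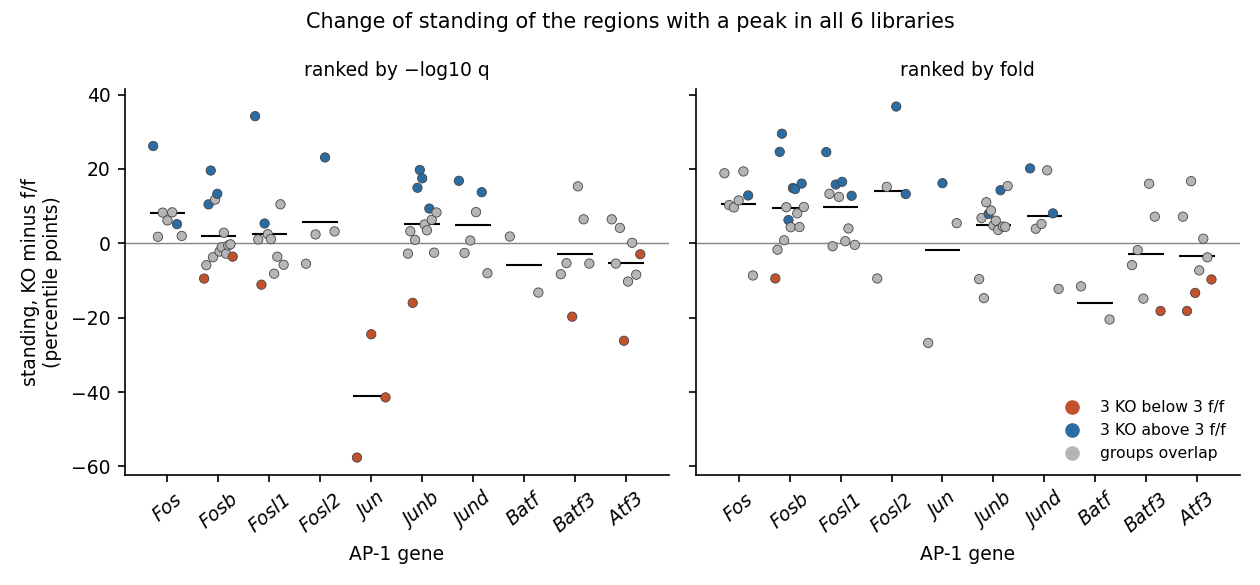
Change of the shared standing, KO mean minus f/f mean in percentile points, of each of the 71 shared regions (those shared by Batf3 and Atf3 drawn at both), ranked by −log10 q (left) and by fold (right). Horizontal lines are gene means, and colours mark regions where the 3 KO libraries lie below or above the 3 f/f libraries. By −log10 q the 3 regions of Jun are at −24.5, −57.6 and −41.4 and its mean is below that of each other gene, whereas by fold the mean of Jun (−1.75) lies within the range of the others.

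The neighbourhood of Jun showed the same pattern beyond the gene. The segment around Jun was already known from earlier results of these data to lose peaks in KO. The 15 Mb of chromosome 4 that start at 90 Mb, in which Jun lies, held 809 regions, of which 206 were f/f-only (25.5%), against 3 of 16 at Jun and 3.75% over all regions. Only 54 regions there (6.67%) had a peak in all 6 libraries, against 3 of 16 at Jun and 33.4% over all regions. The median change of shared standing was −31.2 over these 54 regions and −0.240 over all 29849. Without the Jun window it was −30.8 over 51 regions, and 43 of these (84.3%) were lower in each KO library. By fold the median change in the segment was −1.45, against 0.418 over all regions. None of the other 9 members lies in this segment, although the endothelial marker Tek (chr4:94739086-94874976) does, and the missing and lower peaks at Jun cannot be told apart from those of the segment around it.

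The FOS family had regions on both sides of the comparison. Over the 4 genes, 3 shared regions were lower and 8 were higher in shared standing in each KO than in each f/f library. These were 0 and 2 of 7 shared regions at Fos, 2 and 3 of 14 at Fosb, 1 and 2 of 10 at Fosl1 and 0 and 1 of 4 at Fosl2. Over all 29849 regions 20.9% were lower and 21.1% higher. By gene, the mean shared standing was higher in each KO library at Fos (57.5, 55.6 and 52.8 against 62.7, 63.5 and 64.3) and at Fosl2 (72.6, 67.7 and 67.8 against 77.2, 75.0 and 73.2). With Junb and Jund these were 4 of the 10 genes, against 21.6% of 17124 windows. Mean shared standing was lower in each KO library at Jun and Atf3, 2 of the 10, against 24.6% of windows.

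Fos (chr12:85473890-85477274) has no other protein-coding gene in its window. Its strongest region by standing within the span was the start. The region 37.5 kb upstream, chr12:85435918-85436768, had the largest positive change of mean standing at Fos, from 65.6, 45.8 and 57.5 in f/f to 76.3, 75.1 and 44.2 in KO. On the shared scale it was higher in each KO library, at 31.9, 10.9 and 14.1 against 49.6, 46.6 and 39.2. The region with the lowest change within the lists, chr12:85519129-85520189 at 45.8 kb downstream, had a shared standing of 41.6, 30.3 and 38.7 against 33.0, 39.1 and 44.4, with overlap.

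Fosb, the nearest relative of Fos, lies at chr7:19302696-19310118 among 7 other protein-coding genes, so regions in its window may belong to Vasp, Rtn2, Ercc1, Ppp1r13l and others. Its strongest region within the gene, chr7:19307168-19308938, was 2.06 kb downstream of the start and stood at 68.8, 74.9 and 77.8 in f/f and 70.2, 79.8 and 74.0 in KO. The region with the largest positive change, chr7:19295539-19296242 beyond the gene end, had a shared standing of 41.1, 26.2 and 29.5 against 49.7, 47.3 and 58.5. The region with the lowest change within the lists, chr7:19300573-19302960 at the end of the gene, overlapped between groups on the shared scale, with 9.5, 19.6 and 13 against 9.6, 5.6 and 15.6.

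Fosl1 encodes FRA1, a FOS relative with a known role in bone matrix formation, and lies at chr19:5447698-5455938 with 11 other protein-coding genes in its window. It held the largest positive change of all shared regions at the 10 genes. This region, chr19:5424068-5425641, 22.1 kb from the gene, stood at 70.6, 68.6 and 76.5 in f/f and 84.5, 86.4 and 85.5 in KO, and was the only shared region of the 10 genes whose standing within the list was higher in all 3 KO libraries, KO replicate 3 included. Its −log10 q was 50.7, 48.4 and 97.2 against 148, 213 and 51.5, and its fold 5.18, 4.30 and 5.42 against 7.33, 7.85 and 6.98. In the same window chr19:5432773-5434352, 13.3 kb from the gene, was lower, at 53.5, 54.8 and 64.1 against 37.6, 37.0 and 21.2. The strongest region over the gene itself, chr19:5447436-5449062, overlapped between groups, at 79.4, 84.9 and 85.2 against 84.9, 82.4 and 68.6.

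Fosl2 (chr5:32136472-32157840) again has no other protein-coding gene in its window. Beyond its start, the region 55.7 kb downstream, chr5:32191512-32192772, had a shared standing of 63.7, 59.0 and 55.5 in f/f and 86.4, 81.6 and 79.4 in KO. Its −log10 q of 88.9, 85.8 and 131 stood against 250.4, 287 and 44.5, and its fold was above f/f in KO replicates 1 and 2, at 9.42, 7.14 and 7.85 against 14.5, 13.9 and 8.22. The f/f-only region, chr5:32204435-32205068 at 68.3 kb downstream, was weak, with a −log10 q of 4.93, 6.24 and 21.3 and a standing of 11.2, 17.9 and 41.2. The region with the lowest change, chr5:32088898-32090172 at 46.9 kb upstream, stood at 80.3, 77.2 and 80.8 against 79.8, 79.5 and 39.0, and the low value was that of KO replicate 3.

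The paralogues of Jun did not share its pattern. Junb, which in osteoblasts is needed for proliferation and is a weaker activator than JUN on single AP-1 elements, lies at chr8:84976909-84978748 with 8 other protein-coding genes in its window. Its mean shared standing was 42.6, 38.3 and 37.7 in f/f and 44.5, 44.7 and 45.0 in KO. Of its 13 shared regions, 4 were higher and 1 lower in each KO library, against 21.1 and 20.9% of all shared regions. The start region chr8:84977501-84978968 was among the 4, at 24.0, 31.5 and 11.2 against 33.3, 31.6 and 54.2, as was chr8:84975912-84976816 just beyond the gene end, at 27.4, 33.3 and 37.0 against 40.6, 51.6 and 64.7. The lower one, chr8:84959694-84960486 at 18.7 kb downstream, was at 40.1, 32.2 and 36.5 against 24.1, 16.7 and 19.9.

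Jund, the JUN protein that restrains growth and is present without stimulation, lies at chr8:70697739-70700616 with 5 other protein-coding genes in its window. Its mean shared standing was 51.6, 52.3 and 51.4 in f/f and 56.6, 56.8 and 56.4 in KO, with the smallest spread within groups of the 10 genes. Its strongest region over the gene, chr8:70698249-70700130, covers the gene body rather than the start and stood at 84.1, 89.0 and 87.3 against 88.7, 88.6 and 86.5. The region chr8:70717962-70718848, 20.7 kb downstream, had the lowest change within the lists, at 49.7, 49.1 and 60.8 against 54.3, 39.0 and 3.74. Here too the low value belonged to KO replicate 3.

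At Batf, Batf3 and Atf3 the KO mean of the shared standing was below the f/f mean, with differences of −5.71, −2.85 and −5.33, and the groups overlapped at the first 2. Batf, best known from T and B cells, lies at chr12:85686720-85709087 beside Jdp2 and Flvcr2. It had 2 shared regions, neither at the start. The one inside the gene, chr12:85705075-85706077, stood at 72.0, 75.0 and 77.5 in f/f and 78.2, 73.8 and 48.1 in KO, and chr12:85745539-85746873 at 59.5 kb downstream at 75.3, 80.0 and 77.9 against 75.5, 75.6 and 22.2. The f/f-only region, chr12:85729149-85729949 at 42.8 kb downstream, stood at 12.8, 40.4 and 50.6, with a −log10 q of 5.38, 15.5 and 31.4.

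Batf3 (chr1:191098414-191108943) had a region at its start with a shared standing of 38.7, 53.8 and 32.2 in f/f and 64.8, 59.9 and 45.8 in KO. Its lowest change was at chr1:191075202-191076122, 22.8 kb upstream, where the shared standing was 69.4, 82.9 and 75.6 against 66.3, 60.5 and 42.0, lower in each KO library. The f/f-only region chr1:191068397-191068994, 29.7 kb upstream, stood at 33.0, 43.6 and 39.5. The region chr1:191125855-191126620, which lies in the windows of both Batf3 and Atf3, had the largest positive change of mean standing within the lists at either gene, from 38.3, 58.5 and 30.0 to 54.3, 61.3 and 18.9, with overlap.

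Atf3 (chr1:191170296-191183333) was the member beside Jun whose mean shared standing was lower in each KO library, at 41.7, 47.3 and 44.3 in f/f and 37.5, 41.3 and 38.6 in KO (difference −5.33, exact permutation test, n = 3, p = 0.1). Its start was level between the groups. The region with the lowest change, chr1:191189620-191190503 at 6.73 kb upstream, had a shared standing of 39.6, 48.1 and 44.6 against 25.9, 15 and 12.7, and a −log10 q of 50.6, 65.4 and 102 against 51.0, 45.8 and 5.37. Of its 8 shared regions, 2 were lower in each KO library and 0 higher, against 20.9 and 21.1% of all shared regions. A lower mean in each KO library was found in 24.6% of windows. Its mean standing within the lists, and its mean ranked by fold among the shared regions, overlapped between the groups.

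Ranked by fold among the shared regions, the mean of 6 genes was higher in each KO library, namely Fos, Fosb, Fosl1, Fosl2, Junb and Jund, against 17.7% of windows, and no gene was lower in each. KO replicate 3 was the highest library at each of the 6. At Fosl1 it was at 36.9, and KO replicates 1 and 2 were at 16.6 and 16.0, just above the highest f/f value of 14.8. The gap was wider at Fosl2, with 56.5 and 54.5 in KO replicates 1 and 2 against 48.3. Over the regions, 18 of 71 (25.4%) were higher by fold in each KO library and 4 (5.63%) lower, against 15.5 and 13.9% of all shared regions. By −log10 q, 14 of 71 (19.7%) were higher and 10 (14.1%) lower. The 10 lower regions included the 3 of Jun, and among the other 68 there were 7 lower (10.3%) and 14 higher (20.6%). Without KO replicate 3 these became 12 lower and 17 higher of the 68, against 27.9% lower and 26.9% higher over all shared regions.

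The 6 regions that KO replicates 1 and 2 had and every f/f library lacked were weak and lay at 5 genes. They were at 26.8 kb upstream of Fos, 35.9 kb downstream of the Fosl2 start, 25.9 and 13.3 kb upstream of Jund, and inside Batf3 and Atf3, at 4.70 and 9.56 kb from the start. The highest standing among them was 41.3 in KO replicate 1, in Batf3. Such regions were 6 of 154, against 2.72% over the series. None lay at Jun.

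Genes that act with AP-1 were read from lists of the family and its pathway. Of 24 bZIP relatives outside the 10 members, 9 had an f/f-only region and 1 a KO-only region, and 2 had fewer regions in each KO library, where all windows gave 25.4% with an f/f-only region, 1.49% with a KO-only region and 12.8% with fewer. Among them were Atf1 and Ddit3 with 2 f/f-only regions each, and Bach2, a repressor that competes at AP-1 elements, with 2 f/f-only and 1 KO-only region. Atf1 had 16, 16 and 19 regions in f/f and 14, 11 and 8 in KO, while Bach2 had 32, 33 and 37 against 44, 46 and 24. A further list held 13 genes for MAP kinases, which phosphorylate or induce AP-1 proteins, and for kinases upstream of them. Of these, 7 had an f/f-only region, against 25.4% of all windows. Fewer regions in each KO library were found at 4, against 12.8%, namely Mapk9, Mapk14, Map2k1 and Map2k6. The median number of regions per window was 10 in this list, against 9 over all windows. Mapk9, which encodes the JUN kinase JNK2, had 3 f/f-only regions and 9, 10 and 13 regions against 8, 6 and 3. Mapk14, the p38α kinase, had 13, 14 and 13 against 11, 12 and 3, and Map2k6, an activator of p38, 8, 9 and 10 against 7, 7 and 3. Mapk10, Map2k1 and Map2k6 had 2 f/f-only regions each.

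Of 17 serum response and immediate early genes, 4 had an f/f-only region (Mrtfa, Ier3, Ier5 and Dusp6, with 1 each) and 0 had fewer regions in each KO library. Of 12 AP-1 target genes, 4 had 1 (Plaur, Ccnd1, Cd44 and Bglap) and 0 had fewer. Over all windows 25.4% had an f/f-only region and 12.8% had fewer regions in each KO library. The median number of regions per window was 12 and 11 in these lists, against 9 over all windows. None of the genes of these 4 lists lies in the segment of chromosome 4 around Jun.

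Among 7019 protein-coding genes outside that segment with a number of regions within 5 of the 16 of Jun, the 3 whose 6 mean standings, with missing peaks at 0, were nearest to those of Jun were Eif4a2, Muc4 and Pde8b, at Euclidean distances of 4.60, 5.70 and 5.83 points over the 6 libraries. Jun had mean standings of 40.3, 38.1 and 44.4 in f/f and 22.0, 21.2 and 9.52 in KO. Eif4a2 on chromosome 16, which encodes a translation initiation factor, had 41.5, 40.2 and 47.1 against 23.7, 21.7 and 11.7. Muc4 (chr16:32735886-32782391) lies on the same chromosome as Eif4a2 (chr16:23107468-23114132), and Pde8b lies on chromosome 13. A difference of this size was therefore found on chromosomes 16 and 13 too, at genes chosen here for their likeness to Jun.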

How the data were processed

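ATAC-seq had been performed on 3 libraries of OB Fam20c f/f cells and 3 of KO cells. According to the methods, the authors trimmed the reads, aligned them to mm10 with BWA and called peaks with MACS2 2.1.2 (q-value below 0.05) from the 3 replicates of each group. One peak list is deposited per library. Treatment of duplicate reads and blacklisted regions is not given in the sources used here. The deposited lists give for each peak a score, the fold over the local background (a ratio), and the −log10 p and −log10 q, with no read counts. The lists held 32958 to 74797 peaks, which is not a measure of sequencing depth. In the read table of the paper, KO replicate 3 had more clean reads than f/f replicate 1, although its peak list was shorter. The DESeq2 comparison of the authors was not repeated.

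Peaks on the 19 autosomes, X and Y were joined into regions, counted within 50 kb of RefSeq gene spans (GRCm38.p6) and ranked within each list, for presence and standing per library. Groups, taken from the labels, were compared by exact two-sided permutation tests over the 20 assignments of 3 of 6 libraries, which cannot give a p below 0.1. As a check of the build, the share of summits no more than 1 kb from a gene end was taken. It was 30.9% in KO replicate 3 and 16.9 to 19.2% in the other libraries, and 4.46 to 4.65% after a shift of 1 Mb. The functions were tested on simulated lists. Python 3.11.15, numpy 2.4.6, pandas 2.3.3 and matplotlib 3.10.9 were used.

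The 10 members and all gene lists were chosen with earlier results of these data known, and so was the separate comparison of Jun. At each gene the text names the region over the gene with the highest mean standing, group-specific regions and the shared regions with the largest positive and negative change, and at Jun every region. Listed genes are named where they had a group-specific region, at most 6 per list.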

Additional observations from a re-analysis of the deposited data

How the results depend on the processing

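The results for Jun kept their direction under all alternatives, which were a −log10 q of 5 or more, equal numbers of peaks per list, an overlap of 50% of the shorter peak, extensions of 10 and 100 kb, fold in place of −log10 q, missing peaks at a standing of 0, each library left out, and, chosen after seeing the data, ranks among the shared regions. Their size did not hold under all of them. At 10 kb the difference in regions with a peak at Jun was −0.333 (exact permutation test, p = 1.0) in place of −6.0. By fold the difference in standing at Jun was −4.42 (p = 0.6, exact permutation test), or −1.75 (p = 0.5, exact permutation test) among the shared regions. There 2 of its 3 regions were higher on average in KO, the start by 16.2 and the region 46.7 kb upstream by 5.41. Both averages rested largely on KO replicate 3, at 52.1 and 51.6. At the start, KO replicates 1 and 2 were just above the highest f/f value of 11.6. At the upstream region they were 15.5 and 12.8, below the lowest f/f value of 16.1. At the region 50.7 kb downstream KO replicate 3 was the lowest library, at 24.3. No p could pass 0.05 in this design. The count of 6 f/f-only regions became 3 with equal numbers of peaks, 0 at 10 kb, and 10 at 100 kb, without KO replicate 2, or with at least 2 of 3 libraries, which also gave 6 KO-only regions. The difference in regions with a peak turned to 0.333 at 10 kb, and that in peaks per 10000 turned to −2.02 with equal numbers of peaks. The difference in standing at the 9 genes other than Jun turned to 2.94 with equal numbers of peaks, 0.288 by fold, 2.34 ranked among shared regions and 5.91 by fold among them. The cause was not tested.

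With each library left out, the f/f-only count ranged from 6 to 10 and the KO-only count from 0 to 6, the latter without KO replicate 3. The difference in regions with a peak ranged from −23.8 to 1.17, that in peaks per 10000 from 1.21 to 2.93, the standing at the 9 other genes from −9.16 to −0.404, regions at Jun from −7.0 to −4.5, standing at Jun from −32.9 to −23.5 and the change at Jun minus the others from −24.5 to −22.2.

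Replicate numbers did not pair the libraries, since same-numbered libraries deviated from their group means with correlations of −0.0857, −0.214 and −0.379. With the replicate block the differences are the same (−14.3, 2.23, −5.81, −6.0, −29.3 and −23.5) and the exact sign-flip p-values, which cannot go below 0.25, were 1.0, 0.5, 1.0, 0.25, 0.25 and 0.25.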
